A study of Gallus gallus with 12 samples.

Results

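The W chromosome is the sex chromosome that female birds carry together with 1 Z, while males carry a pair of Z chromosomes. It is small, does not recombine with Z over most of its length, and is known for a high content of repeats and endogenous retroviruses and for a small set of genes kept from its shared ancestry with Z. Such repeat-rich DNA is commonly methylated at CpG sites. All peaks on chromosome W were taken from the 6 deposited lists of methylation-enriched peaks of chicken liver, 1387 peaks in all. Overlapping or touching peaks were merged into 350 regions, out of 90181 regions over the whole genome.

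The peaks came from methylated DNA immunoprecipitation sequencing (MeDIP-seq), in which an antibody against methylated cytosine pulls down DNA fragments for sequencing. Liver DNA was taken from chickens recorded as resistant (samples 3, 4 and 26) or as susceptible (samples 8, 9 and 14) to ALV-J, the subgroup J avian leukosis virus, which is a chicken retrovirus. Each of the 6 lists was called against the input DNA that carries the same sample number. The labels give neither sex, age, strain nor virus exposure, and they do not say outright that each number is a separate bird, so p-values measure the spread between these samples. Libraries are called here by group and sample number. Every score is the authors' own peak score, and a score percentile ranks a peak within its own list of 55599 to 64559 peaks. Many of the strongest peaks share a score of 3100, so strong regions cannot be ordered among themselves. The lists carry no read numbers, so depth is unknown, and where no peak is listed none passed the authors' threshold.

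Positions are on galGal4, counted from 1. The last W peak ended at position 1247952, which was used as the length of the chromosome and is a lower bound. Shares of length, coverage ranks and positions on W refer to this stretch only. How much of the whole chromosome it holds was not analysed here. The gene table at hand follows another assembly, GRCg7b, so W regions are given without gene names. That table lists 170 W genes, among them ATP5F1AW, the W copy of a mitochondrial ATP synthase subunit, and HINTW, a W-linked relative of the HINT1 nucleotide hydrolase. Which of them lie near a region was not analysed here, and no genome sequence of galGal4 was used.

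W was one of the most densely covered chromosomes in 4 of the libraries and ranked in the lower part in the remaining 2. Resistant 3 and 4 had 305 and 297 W peaks, covering 185 and 181 kb per Mb, and resistant 26 had 94 peaks covering 50.2 kb per Mb. Susceptible 8 and 9 had 287 and 305 W peaks, covering 179 and 189 kb per Mb, and susceptible 14 had 99 peaks covering 53.3 kb per Mb. Resistant 26 and susceptible 14 therefore stand apart in the same direction, 1 in each group, and neither lacks W peaks. Among 31 chromosomes and linkage groups, W ranked 24th in coverage in both resistant 26 and susceptible 14, 6th in susceptible 9 and 5th in resistant 3, resistant 4 and susceptible 8.

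**Figure D1:**
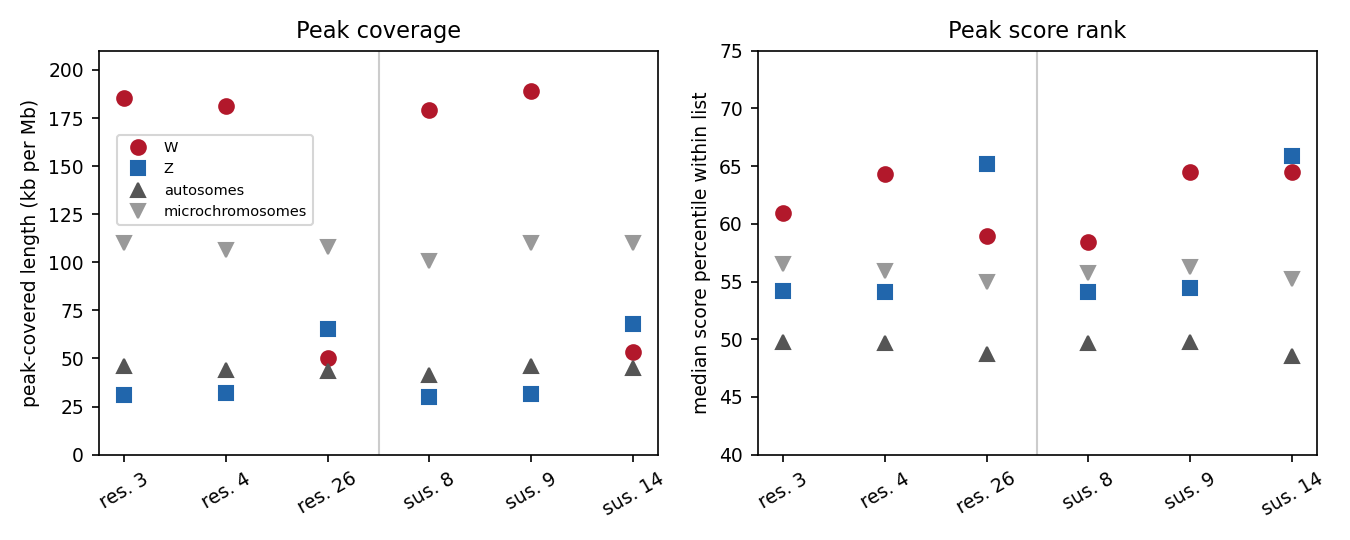
Peak-covered length in kb per Mb (left) and median score percentile within the library's own list (right) for W, Z, autosomes and microchromosomes, with 1 point per library (res., resistant; sus., susceptible). W coverage lies at 179 to 189 kb per Mb in 4 libraries and at 50.2 and 53.3 in resistant 26 and susceptible 14, where Z coverage is highest. Median score percentiles, taken over the W peaks that each library has, lie between 58.4 and 64.5.

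Z moved the other way in the same libraries. Peaks covered 65.3 and 68.1 kb per Mb of Z in resistant 26 and susceptible 14, against 29.9 to 31.8 kb per Mb in the other 4. Autosomes, counted as all numbered chromosomes, were covered at 43.6 and 45.0 kb per Mb in resistant 26 and susceptible 14, inside the 41.4 to 46.0 kb per Mb of the other 4. W thus had 1.15 and 1.18 times the autosomal coverage in resistant 26 and susceptible 14, and 4.03 to 4.33 times in the other 4. The labels give no sex, and its part in these values was not tested. Because these libraries were told apart by W itself, no test was made between them and the others, and they are given one by one.

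Against the rest of the genome, W peaks were of high rank. In every library their median score percentile was above that of autosomal peaks, at 61.9 ± 2.87 on W and 49.4 ± 0.560 on autosomes (mean ± SD, n = 6 libraries). The difference of 12.6 percentile points was positive in 6 of 6 libraries (exact two-sided sign-flip permutation test, p = 0.03125, the smallest that 6 libraries can give, adjusted p = 0.0417 over 4 measures). Peaks among the 10% highest scores of their list made up 17.4 ± 1.34% of W peaks and 9.53 ± 0.441% of autosomal peaks (n = 6, higher on W in 6 of 6, exact p = 0.03125, adjusted p = 0.0417). Microchromosomes 11 to 28, which are small and gene-dense, came closer, and W still ranked higher by 6.17 percentile points in 6 of 6 libraries (exact p = 0.03125, adjusted p = 0.0417). Against Z the difference of 3.95 points was positive in 4 of 6 libraries and not past the threshold (exact p = 0.219, adjusted p = 0.219), the exceptions being resistant 26 and susceptible 14.

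Coverage of W exceeded that of autosomes in 6 of 6 libraries, at 139.7 ± 68.2 kb per Mb on W and 44.4 ± 1.77 kb per Mb on autosomes (mean ± SD, n = 6). The excess averaged 95.4 kb per Mb, with a range of 6.67 to 143 (exact sign-flip p = 0.03125, adjusted p = 0.0417). Autosomes were counted as 1 pooled length, in which large chromosomes weigh most. In resistant 26 and susceptible 14, W ranked only 24th of 31 chromosomes and linkage groups, so most of them were more densely covered than W there. Against microchromosomes, which were covered at 101 to 110 kb per Mb, the sign differed between libraries, from -57.5 kb per Mb in resistant 26 to 79.1 in susceptible 9 (exact p = 0.25, adjusted p = 0.25). Without resistant 26 and susceptible 14 the mean excess over autosomes was 139 kb per Mb, in 4 libraries that are too few to pass 0.05. High rank was common to the W peaks of all 6 libraries, whereas dense coverage was seen in 4. These ranks are over the W peaks that each library has, not over the same regions. In the 65 W regions found in all 6 libraries, the median percentile was 68.4 in resistant 26 and 71.7 in susceptible 14. In samples 3, 4, 8 and 9 it was 90.8 to 91.9.

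W peaks were not uniformly wide. Median widths of 452 bp in resistant 26 and 487 bp in susceptible 14 stood against 565 to 602 bp in resistant 3 and 4 and susceptible 8 and 9. The corresponding autosomal medians were 606 and 630 bp, and 532 to 560 bp. W peaks were therefore narrower than autosomal peaks in resistant 26 and susceptible 14 and wider in the other 4, and the mean difference of -25.3 bp was not past the threshold (exact sign-flip p = 0.531, adjusted p = 0.531, n = 6). That direction turned in samples 3, 4, 8 and 9 when only peaks at or above the median score of all lists pooled (193.6) were counted. W peaks were then narrower in 6 of 6 libraries, with differences of -236.5 bp in resistant 26, -308 bp in susceptible 14 and -43.0 to -20.5 bp in the other 4 (mean difference -113 bp, exact sign-flip p = 0.03125, adjusted p = 0.03125). Against microchromosomes W peaks were narrower in 6 of 6 libraries, by 88.6 bp (exact p = 0.03125, adjusted p = 0.0417). Single W peaks ran from 200 to 6886 bp.

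Between the ALV-J groups W did not separate. Resistant libraries averaged 139 ± 76.9 kb of cover per Mb, and susceptible libraries 140.4 ± 75.6 (SD, n = 3 each, exact two-sided permutation test, p = 0.8, where 0.1 is the smallest possible). Peak numbers averaged 232 ± 120 in resistant and 230.3 ± 114 in susceptible libraries (n = 3 each, exact p = 1). Median peak widths averaged 533 ± 71.0 bp in the resistant group and 556 ± 61.0 bp in the susceptible group (exact permutation p = 0.6, n = 3 each), and median score percentiles 61.4 ± 2.74 in the resistant group and 62.5 ± 3.49 in the susceptible group (exact permutation p = 0.8, n = 3 each). All 4 adjusted p-values were 1. In resistant 3 and 4 against susceptible 8 and 9, coverage was 183 ± 2.78 kb per Mb for the resistant pair and 184 ± 7.08 for the susceptible pair (SD, n = 2 each, exact p = 1, a design too small to pass 0.05). The SDs over these 4 libraries were smaller than over all 6, and the group means differed by less than either.

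No W region had peaks in every library of a single group and in none of the other. A peak in all 3 resistant and in 0 susceptible libraries was found in 0 of 350 W regions, against 0.577% of regions over the whole genome, and the reverse in 0 of 350, against 0.320%. At those genome-wide rates few such regions would be found among 350, and no test was made per region. A resistant-only region needs a peak in resistant 26. Of the 81 W regions with one, 76 also had peaks in all of samples 3, 4, 8 and 9. For susceptible-only regions and susceptible 14 the numbers of regions were 82 and 76. Little room was therefore left for group-only W regions, and the counts of 0 say little about the groups. The same overlap was not counted over the genome, so whether it is particular to W was not tested. Among samples 3, 4, 8 and 9 alone, 10 of 350 W regions (2.86%) had peaks in resistant 3 and 4 only, against 3.31% over the genome. The reverse, peaks in susceptible 8 and 9 only, held for 5 of 350 (1.43%), against 1.97%. Of the 43 W regions found in exactly 2 of these 4 libraries, each mixed pair took between 4 and 9. The 10 regions of resistant 3 and 4 were weak, with score percentiles between 0.3 and 47.4, and the 5 of susceptible 8 and 9 reached 57.3. The highest of these 5 lay at chrW:505400-506221, with scores of 115.27 and 225.87 in susceptible 8 and 9.

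The merged regions spanned 304 kb, or 24.3% of the measured length of W. Their median width was 642 bp, with quartiles of 478 and 911 bp and a range of 232 to 6926 bp, and the gap between neighbours had a median of 986 bp. Regions wider than 2 kb numbered 17 (4.86%, against 4.34% on autosomes) and held 20.2% of the covered length. By library, 117 regions (33.4%) had a peak in exactly resistant 3 and 4 and susceptible 8 and 9, a pattern that made up 1.39% of regions over the genome. Its excess on W follows from the W coverage by which resistant 26 and susceptible 14 were told apart. Another 65 regions (18.6%) had a peak in all 6 libraries, against 33.5% over the genome. A further 64 (18.3%) had one in a single library, against 25.4% of autosomal regions. Of these 64, none belonged to resistant 26 or susceptible 14, and the share of these libraries among single-library regions elsewhere was not counted.

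**Figure D2:**
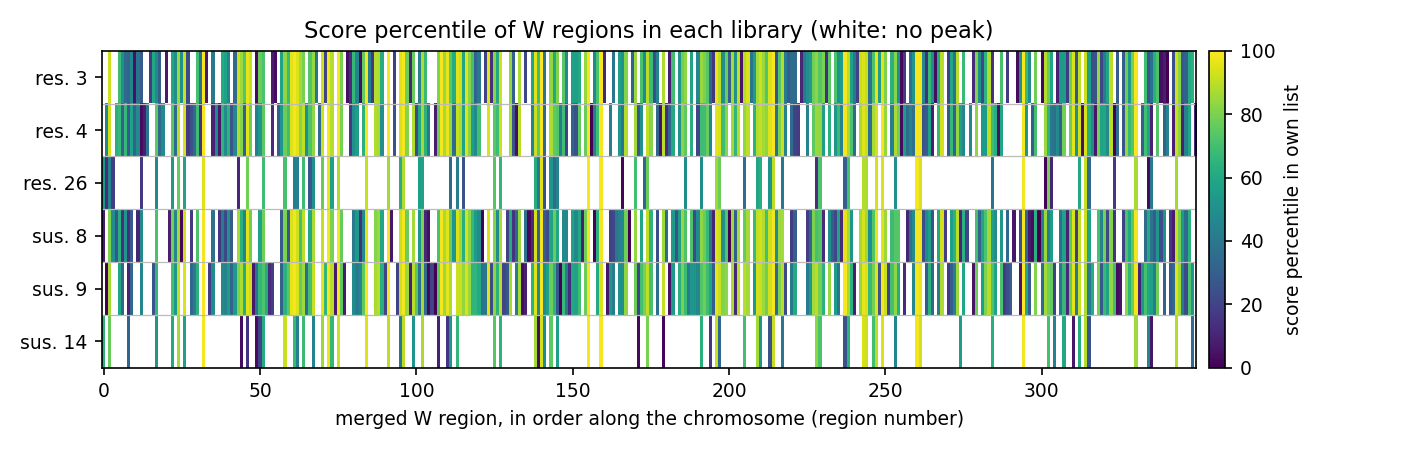
Score percentile within the own list for each of the 350 merged W regions (columns, in order along the chromosome) in each library (rows; res., resistant; sus., susceptible), with white where no peak was called. Resistant 26 and susceptible 14 have a peak in 81 and 82 regions, at median percentiles of 58.3 and 64.5.

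W peaks lay largely in the same places in the 4 densely covered libraries, whichever group they came from. The Jaccard index of 2 libraries (shared covered length over total covered length) lay between 0.717 and 0.722 for the 6 pairs among resistant 3 and 4 and susceptible 8 and 9, while the same pairs had 0.631 to 0.649 on autosomes. Resistant 3 with 4 had 0.717 and susceptible 8 with 9 had 0.718, and the 4 pairs between groups had 0.717 to 0.722. Resistant 26 with susceptible 14 had 0.673 on W and 0.646 on autosomes. Pairs of 1 of these with 1 of the other 4 had 0.248 to 0.277 on W and 0.622 to 0.645 on autosomes. The index cannot exceed the smaller covered length over the larger. On W these lengths were 62.7 and 66.5 kb in resistant 26 and susceptible 14, against 223 to 236 kb in the other 4. The low values on W therefore largely reflect unequal cover, not different places. In these pairs, 93.2 to 96.9% of the W cover of resistant 26 or susceptible 14 lay inside peaks of the other library. Pairs share libraries, so these indices are a description without a test.

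A peak in resistant 26 or susceptible 14 was found in 97 of the 350 W regions, in 81 for resistant 26, in 82 for susceptible 14 and in 66 for both. All 97 also had a peak in at least 1 of samples 3, 4, 8 and 9, and 87 had one in all 4 of them. Over the whole genome, 82917 of 90181 regions had a peak in at least 1 of these 4 libraries, against all 350 on W. That share is over all regions. The share among only those with a peak in resistant 26 or susceptible 14 was not counted over the genome. By length, 99.5% of the W cover of resistant 26 and 99.4% of that of susceptible 14 lay inside peaks of the other 4, leaving 0.307 and 0.423 kb outside. The other way round, resistant 26 covered 34.2% and susceptible 14 covered 35.6% of the 167 kb that samples 3, 4, 8 and 9 had in common. By length, the W peaks of these 2 libraries thus lay almost wholly inside the pooled peaks of the other 4. The same shares of length were not worked out for other chromosomes, so whether this is particular to W was not tested.

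Strong regions were more often among those found in resistant 26 and susceptible 14. Of the 204 W regions found in all of samples 3, 4, 8 and 9, 37.3% had a peak in resistant 26 and 37.3% in susceptible 14, against 91.6% and 91.3% of 32998 autosomal regions found in the same 4 libraries. The regions were sorted by the lowest of their score percentiles in those 4 lists. Above percentile 80, 66.7% and 68.1% of 69 W regions were found in resistant 26 and susceptible 14. Between percentiles 40 and 60 it was 15.4% and 17.9% of 39 W regions, against 96.2% and 95.6% of autosomal regions. At or below percentile 20, 15.8% of 19 W regions were found in each, against 74.1% of autosomal regions in each. The share of W regions above percentile 80 was thus still below that of autosomal regions at or below percentile 20. Of the 204, neither library had a peak in 117 (57.4%), against 3.30% on autosomes and 2.82% on Z. Resistant 26 and susceptible 14 were told apart by W itself, so lower shares on W than elsewhere follow from that choice. They are no separate result about W.

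**Figure D3:**
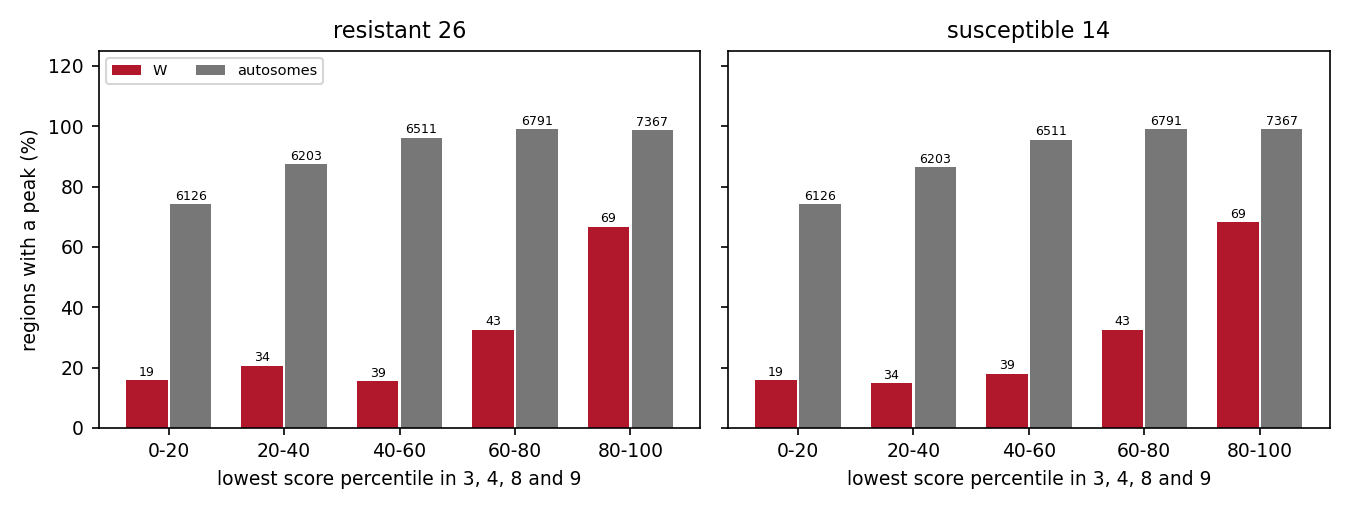
Percent of regions with a peak in samples 3, 4, 8 and 9 that also have a peak in resistant 26 (left) and susceptible 14 (right), by the lowest score percentile in those 4 lists, for W and for autosomes, with the number of regions above each bar. The share on W lies between 14.7 and 32.6% up to percentile 80 and is 66.7 and 68.1% above it, while autosomes lie at 74.1% or more. Both libraries were told apart by W itself, so the lower level on W follows from that choice.

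Where a W region was found in all 6 libraries, it ranked lower in resistant 26 and susceptible 14. Over these 65 regions the median score percentile was 68.4 in resistant 26 and 71.7 in susceptible 14, against 91.8 and 91.9 in resistant 3 and 4 and 90.8 and 91.9 in susceptible 8 and 9. In 52 regions the percentile of resistant 26 was below that of all of samples 3, 4, 8 and 9, and in 46 that of susceptible 14 was. Over autosomal regions found in all 6 libraries this held for 29.3% in resistant 26 and 30.1% in susceptible 14. These autosomal regions were not matched to the W regions for score, and regions of high percentile have more room to fall. Resistant 26 and susceptible 14 were also told apart by W itself, so the contrast is not independent of that choice.

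**Figure D4:**
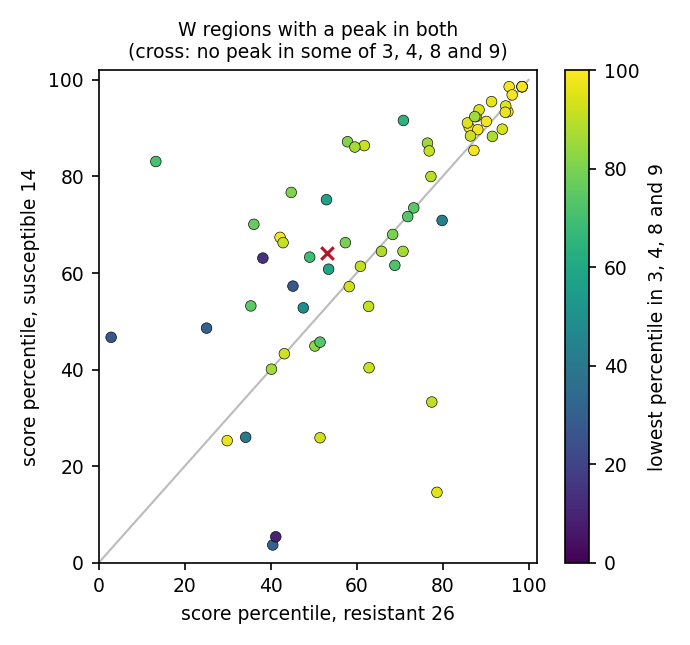
Score percentile of the 66 W regions with a peak in both resistant 26 (horizontal) and susceptible 14 (vertical), coloured by the lowest percentile in samples 3, 4, 8 and 9, with the line of equal percentiles. A cross marks the 1 region without a peak in all of those 4, and regions at the upper right are among the strongest in every list.

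The strongest W regions of the densely covered libraries are given next. In 13 regions the score was at or above 3100 in all of samples 3, 4, 8 and 9, and 12 of these had peaks in both resistant 26 and susceptible 14. The same share at 3100 was not counted for autosomes. Above percentile 80 in those 4 lists, 98.6% of 7367 autosomal regions had peaks in both, against 63.8% of 69 on W. A lower share on W follows from how resistant 26 and susceptible 14 were told apart. The widest of the 13 lay at chrW:998850-1005775 (6926 bp) and chrW:544970-551780 (6811 bp), and both reached 3100 in resistant 26 and in susceptible 14 too. The same was true of chrW:871746-876711 (4966 bp). These were the only 3 W regions at or above 3100 in every library. The stretch chrW:544970-551780 was split into 4 peaks in resistant 26 and 6 in susceptible 14, against 1 and 3 in resistant 3 and 4 and 2 in each of susceptible 8 and 9.

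Of the 10 other regions at or above 3100 in samples 3, 4, 8 and 9, chrW:144573-147680 (3108 bp) also scored 3100 in susceptible 14, with 2199.20 in resistant 26. At chrW:270213-273253 (3041 bp) the score was 2496.58 in resistant 26 and 2675.41 in susceptible 14. At chrW:498759-502412 (3654 bp) it was 2094.66 and 1486.41, in the same order of libraries. Lower in both came chrW:283239-284772 (912.40 and 1313.38), chrW:761678-763595 (1121.61 and 1183.10), chrW:378570-382658 (941.49 and 1008.63), chrW:339556-340516 (809.41 and 1055.50) and chrW:1164010-1168827 (874.72 and 724.42). Even these stood between percentiles 85.4 and 92.4 of their own lists.

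In contrast, chrW:229137-235050, the third widest region at 5914 bp, had scores of only 166.23 in resistant 26 and 315.81 in susceptible 14, at percentiles 42.2 and 67.4. It reached 3100 in each of the other 4 libraries. The region directly before it, chrW:227562-229128 and 8 bp away, had no peak in resistant 26 or susceptible 14. Its scores were 1909.33 and 1868.63 in resistant 3 and 4 and 1718.27 and 2265.76 in susceptible 8 and 9.

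The remaining regions of high rank in both resistant 26 and susceptible 14 were at most 2036 bp wide. At chrW:558192-559091 (900 bp) both had a score of 3100, as did resistant 3 and 4 and susceptible 8, and susceptible 9 had 1543.18. At chrW:840446-841292 (847 bp) resistant 26 had 1903.91 and susceptible 14 had 1751.35, against 1814.13 and 3100 in resistant 3 and 4 and 2072.99 and 3100 in susceptible 8 and 9. At chrW:876939-878974 (2036 bp) their scores were 1868.30 and 1469.24, and at chrW:316458-317215 (758 bp) 1264.11 and 2046.33. At these 4 sites the percentile in both libraries lay above 91.

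Other strong W regions also had no peak in resistant 26 or susceptible 14. The strongest, chrW:421795-423882 (2088 bp), scored 3100 in resistant 3 and 4 and in susceptible 8 and 9. Its neighbour chrW:419077-421783, 11 bp away, had a peak of score 90.86 in susceptible 14. The next, chrW:446931-449013 (2083 bp), scored 2331.75 and 1821.97 in resistant 3 and 4 and 1788.56 and 2034.78 in susceptible 8 and 9. At chrW:432470-434312 (1843 bp) the scores were 2090.72, 2116.29, 1686.07 and 1714.70 in resistant 3 and 4 and susceptible 8 and 9. Its neighbour chrW:431521-432139, 330 bp away, had a peak of score 120.06 in resistant 26. At chrW:896577-897323 (747 bp) the 4 libraries scored between 806.59 and 1538.83. Of the 5 regions named for having no peak in either library, chrW:227562-229128 included, 3 depended on how regions were drawn. When peaks up to 500 bp apart were joined, chrW:227562-229128, chrW:421795-423882 and chrW:432470-434312 became part of regions with a peak in all 6 libraries.

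A few W regions went against the general order. At chrW:223405-223853 (449 bp) susceptible 14 had a score of 1213.31, at percentile 91.6, against 599.89 and 476.68 in resistant 3 and 4 and 561.51 and 273.84 in susceptible 8 and 9 (percentiles 64.1 to 83.5), and resistant 26 had 374.32. At chrW:504007-504876 susceptible 14 was also the highest, by a small margin at percentile 48.6 against 30.1 to 47.0. Resistant 26 had a higher percentile than samples 3, 4, 8 and 9 in 1 of the 65 regions, chrW:1034090-1034884, at 79.9 against 42.6 to 78.7. Such regions made up 1.54% of the 65 for resistant 26 and 3.08% for susceptible 14. Over autosomal regions found in all 6 libraries the share was 10.6% for each, so they were rarer on W. The 2 sets were not matched for score. The 65 W regions had median percentiles of 90.8 to 91.9 in samples 3, 4, 8 and 9, which leaves little room above. At the start of the sequence, chrW:172-1683 had peaks in resistant 26 (215.54), susceptible 14 (282.97) and susceptible 8 (88.78), and no peak in resistant 3, resistant 4 or susceptible 9. These 4 regions were singled out after their values were seen.

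Along the chromosome, cover was uneven in a way that the 6 libraries shared only in part. In windows of 100 kb, samples 3, 4, 8 and 9 had between 8.36 and 29.8 kb covered, leaving out the partial window at the end. The densest were those from 400001 to 500000 (25.5 to 29.8 kb) and from 800001 to 900000 (27.6 to 29.7 kb). In the second of these resistant 26 and susceptible 14 had 11.3 and 11.8 kb, their highest values. In the first they had only 3.08 and 4.63 kb, 12.1% and 18.2% of the lowest of the other 4.

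Resistant 26 and susceptible 14 came closest to the rest at the beginning of W and just past 1 Mb. In the first window they had 5.10 and 4.75 kb, 57.4% and 53.5% of the lowest of samples 3, 4, 8 and 9. From 1000001 to 1100000 they had 8.70 and 8.54 kb, 51.2% and 50.3% of the lowest. This window holds most of chrW:998850-1005775, the widest region. They came to least between 600001 and 700000, with 0.564 and 0.707 kb against 8.36 to 9.66 kb, and between 900001 and 1000000, with 0.992 and 1.60 kb against 10.5 to 12.4 kb. The longest stretch of W without a peak in resistant 26 ran from 878201 to 970526 (92.3 kb), where resistant 3 and 4 had 19 and 20 peaks, susceptible 8 and 9 had 19 and 17, and susceptible 14 had 1. In susceptible 14 it ran from 1094044 to 1164022 (70.0 kb), where resistant 26 had 1 peak, resistant 3 and 4 had 13 and 14, and susceptible 8 and 9 had 10 and 13.

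**Figure D5:**
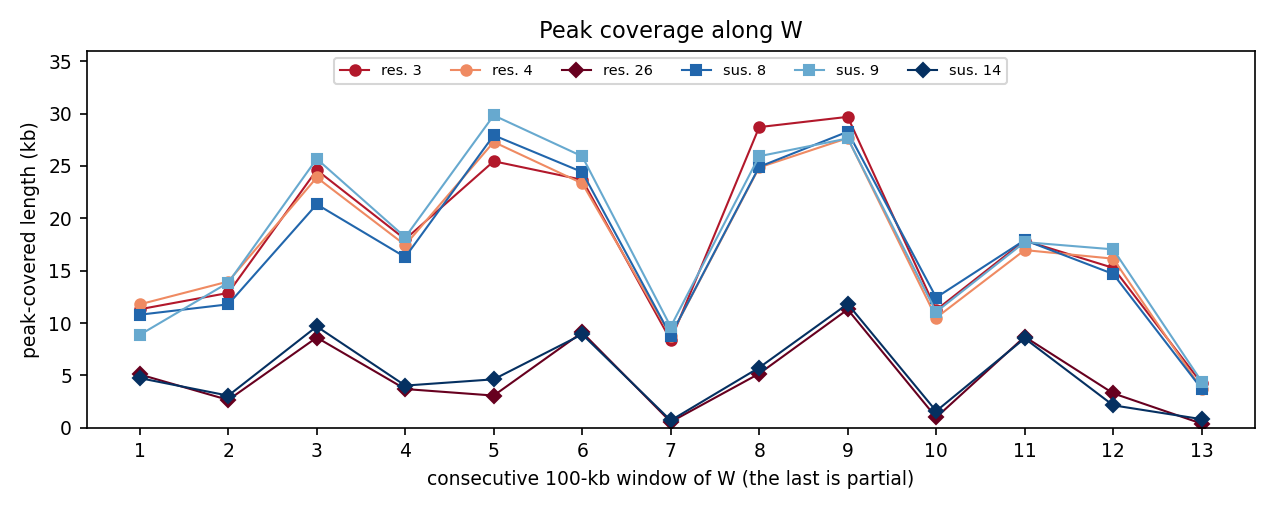
Peak-covered length in kb in consecutive windows of 100 kb along W, 1 line per library (res., resistant; sus., susceptible). Resistant 26 and susceptible 14 (diamonds) follow each other closely and lie below the other 4 lines in every window, with 0.564 and 0.707 kb in the seventh window against 8.36 to 9.66 kb.

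Some of W had no peak in any library. The longest such stretches ran from 1122850 to 1152203 (29.4 kb), from 341853 to 368449 (26.6 kb), from 1211474 to 1237713 (26.2 kb), from 93486 to 116585 (23.1 kb) and from 615911 to 637484 (21.6 kb). CpG content, repeats and assembly gaps in them were not analysed here.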

How the data were processed

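MeDIP-seq peak lists of 6 chicken liver libraries were used, 3 per ALV-J group, and the 6 input libraries entered only through the authors' peak calls. Per the submitters' processing notes, cutadapt, Bowtie2 and the build galGal4 were used. Per the file and peak names, MACS called peaks separately for every library, with its own input as control. Versions, read filters, duplicate handling: not given in the sources used here. Peak scores, as deposited, start at 80 and were taken to be 10 times the negative log10 of a p-value, judging from their values. It rises with depth, which is unknown, and a called peak reflects enrichment over input, not the share of CpGs methylated. Scores were therefore turned into percentiles within each list.

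From the lists, peaks were merged and compared with Python 3.11.15 and pandas 2.3.3. A library counted as present in a region where it had any peak. The source label of a sample gave its group. Exact permutation tests were used between groups and exact sign-flip tests within libraries, with Benjamini-Hochberg adjustment over 4 measures. Merging and calls were tested on simulated data with known answers. Named regions were the 10 highest by the lowest percentile in samples 3, 4, 8 and 9 (ties by position), the 10 highest by the lower percentile in 26 and 14, the 5 highest found in samples 3, 4, 8 and 9 but in neither 26 nor 14, the 5 widest and the 5 longest stretches without a peak. That rule also covered regions found only in 26 or 14 and group-only regions, and 0 were found of either kind. Alternatives tried were a minimum score of 193.59 (the pooled median), equal lists of 55599 peaks, each library left out, other chromosomes set against W, joining of peaks 500 bp apart, a cover of 50%, windows of 1000 bp and, for similarity, overlapping peaks. The members and rules were chosen with earlier results of these data known.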

Additional observations from a re-analysis of the deposited data

How the results depend on the processing

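Group differences on W had no stable sign. The resistant minus susceptible difference in peak number (1.67) turned to -2.33 at the pooled median score and -5.67 with equal list lengths, and the difference in median score percentile (-1.07) turned to 0.408 at the pooled median score and 1.17 in samples 3, 4, 8 and 9 alone. With 1 library left out it ranged from -64.0 to 70.7 for peak number, -45.0 to 43.0 kb per Mb for coverage, -58.2 to 17.2 bp for median width and -3.08 to 0.171 for percentile. Coverage turned positive without resistant 26 (43.0), susceptible 8 (17.9) or susceptible 9 (22.9), width (17.2) and percentile (0.171) without resistant 26, and peak number turned negative without resistant 3 (-34.8), resistant 4 (-30.8) or susceptible 14 (-64.0).

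W minus autosomes kept its sign for coverage (85.8 to 113 kb per Mb with 1 library left out), percentile (11.9 to 13.4) and share of top peaks (7.34 to 8.08), but 5 libraries cannot pass the threshold. In samples 3, 4, 8 and 9 alone, an alternative added after seeing the data, the values were 139, 12.3 and 7.43, and median width turned to 36.5 bp. Width also turned without resistant 26 (0.600, lowest -40.7), and was past the threshold at the pooled median score (-113) and against microchromosomes (-88.6). Coverage was not past it against microchromosomes (32.2), nor were coverage (96.8), median width (-102), percentile (3.95) and top peaks (2.53) against Z. W peaks were nevertheless narrower than Z peaks in all 6 libraries, by -258 to -16.0 bp. That width difference failed only after adjustment (exact sign-flip p = 0.03125, adjusted p = 0.125 over 4 measures).

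Merged regions numbered 214 at the pooled median score and 542 in windows of 1000 bp. Regions in every library numbered 41, 123 and, with a cover of 50%, 35, and 204 in samples 3, 4, 8 and 9. Regions in 1 library numbered 33 at the median score and 32 with joined peaks. Regions in 26 or 14 numbered 64 with a cover of 50%, 176 in windows and 81 to 100 with 1 library left out. Those in samples 3, 4, 8 and 9 but in neither numbered 76 at the median score, 77 with joined peaks and 199 in windows. Group-only regions ranged from 0 to 10 (resistant, highest without resistant 26) and from 0 to 5 (susceptible, highest without susceptible 14) with 1 library left out, and likewise 10 and 5 in samples 3, 4, 8 and 9 alone. Similarity was also taken as the share of overlapping peaks, in the lower of both directions and as the median over pairs. It was 0.851 among samples 3, 4, 8 and 9, 0.808 for 26 with 14 and 0.284 between these. That last value is the share of peaks of the densely covered library. In the other direction, 95.7 to 98.0% of the W peaks of 26 or 14 overlapped a peak of the other library. Of 21 named regions, 15 had the same number of libraries with a cover of 50%, 18 in windows and with joined peaks, 20 at the median score and 21 with equal list lengths. The 3 that changed with joined peaks or in windows were all among the 5 strong regions named for having no peak in 26 or 14. The cause of these changes was not tested, apart from those fixed by construction, such as fewer libraries. Depth is unknown, so a missing peak may be a weak one.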
